A study of Mus musculus with 70 samples.

Results

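The homeostatic microglia marker genes described here are Tmem119, Fcrls, Siglech, Olfml3, Crybb1, Sparc, Slc2a5, Selplg and Gpr84. They are 9 of the 25806 Ensembl gene identifiers found in any of the 5 deposited count tables. They were taken by gene name, with each value scaled to the total counts of its library (CPM). The study measured microglia from brains of mice that carry a tamoxifen-dependent Cre recombinase at the Cx3cr1 locus, in 2 separately made lines called Littman and Jung. Each of the 70 libraries was made by CEL-Seq2, a method that counts 3' ends of transcripts with molecular identifiers, from 500 cells sorted as CD11b+ CD45+ Ly6G- CD206-. The libraries fell into 17 groups. Samples were compared within a table, since the tables were deposited and scaled separately.

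Homeostatic genes are those that mark microglia of the undisturbed brain, though not necessarily microglia alone. The level of most is known to drop when microglia are activated, injured or cultured. The transcription factors PU.1 and SALL1, and signalling by transforming growth factor beta through SMAD proteins, are known to maintain this expression. Among the 9, Tmem119 (a membrane protein), Fcrls (an Fc receptor-like scavenger receptor), Siglech (a sialic acid-binding lectin) and Selplg (the P-selectin ligand PSGL-1) are cell-surface proteins. Olfml3 and Sparc are secreted matrix-associated glycoproteins, Slc2a5 is the fructose transporter GLUT5, Crybb1 is a beta-crystallin better known from the lens, and Gpr84 is a receptor for medium-chain fatty acids that is known to be induced by inflammatory stimuli.

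The vehicle and UC2288 table holds Littman pups. Its 5 Cre- vehicle libraries came from tamoxifen-treated Cx3cr1+/+ wild-type mice, and its 4 Cre+ oil and 4 Cre+ tamoxifen vehicle libraries from mice with 1 Littman Cre allele. Another 3 Cre- and 5 Cre+ libraries came from tamoxifen-treated pups given UC2288, used as a functional inhibitor of CDKN1A at 100 mg/kg in corn oil with 2% DMSO. The postnatal table holds 5 Cre- (wild type) and 5 Cre+ Littman libraries, all after tamoxifen, and 5 oil and 4 tamoxifen libraries of Jung mice that carry 1 Cre allele and 1 Rosa26YFP allele. Pups were 8 or 14 days old and received 0.1 mg tamoxifen at days 1 and 3 or 0.2 mg at days 5 and 7, but neither age nor schedule is given for a single sample. Adults, 6 to 15 weeks old, received 4 mg tamoxifen 2 times: 4 oil and 3 tamoxifen Littman libraries, 4 and 4 Jung libraries, and a BLZ-titled table with 3 oil and 4 tamoxifen Littman and 4 oil and 4 tamoxifen Jung libraries. BLZ945, an inhibitor of the CSF1 receptor, was given for 5 days at 100 mg/kg. The titles and treatment labels of the Jung adults conflict: the adult-titled ones are labelled with BLZ945 and the BLZ-titled ones without it, and the BLZ-titled Jung mice also carry Rosa26YFP. In every group other than Cre-, the mice have lost 1 Cx3cr1 allele to the knock-in. Nothing in the labels makes replicates separate animals, so p-values measure the spread between these samples, which may be partly technical. By Xist and Y-gene counts most groups held both sexes, such as 2 female and 2 male vehicle Cre+ tamoxifen libraries. Such a group came from more than 1 animal, but not necessarily from 1 animal per library.

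Depth was 116083 to 277680 counts per library for vehicle and UC2288, 184513 to 236106 for BLZ-titled, 274120 to 347941 for adult and 329329 to 450461 for postnatal libraries. Cx3cr1, which checks the genotype, read 2237 to 2919 CPM in the vehicle Cre- libraries against 1355 to 1545 CPM in Cre+ oil and 842 to 1116 CPM in Cre+ tamoxifen libraries. The purine receptor P2ry12, a defining microglia marker, read 743 to 5739 CPM over all libraries and border macrophage markers together at most 597 CPM. Neutrophil markers, whose cells the Ly6G- gate should leave out, had counts in 4 libraries: Cre- postnatal replicate 2, UC2288 Cre- replicate 1, and 1 oil and 1 tamoxifen BLZ-titled Littman library. In bulk samples, fewer cells of a type and less RNA per cell cannot be told apart. All members had counts in every table. The filter on low counts kept 8 of them in 4 tables and all 9 in the vehicle and UC2288 table, Gpr84 being the one left out elsewhere.

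To ask what Littman Cre with tamoxifen does to these genes, the 4 vehicle Cre+ tamoxifen libraries were compared with the 5 Cre- tamoxifen and the 4 Cre+ oil libraries. Of the 9 markers, 6 fell against Cre- and 7 fell against Cre+ oil, by 2.15- to 3.98-fold and 2.11- to 6.07-fold. Of all 4953 genes tested, 12.9% fell against Cre- and 15.3% against oil, and 27.2% and 31.4% were called in either direction. Crybb1, Slc2a5 and Fcrls had the lowest log2 fold changes in both comparisons, ahead of Siglech, Olfml3 and Sparc. Tmem119 and Gpr84 passed neither test, and Selplg passed only that against oil. The 2 comparisons share the tamoxifen Cre+ libraries.

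Promoter sequences of 4 of these falling genes are shown because the genes moved together; 7 of the 9 members matched an entry of the RefSeq promoter table (GRCm38.p6, 250 bases before to 50 after the start). Capitals mark matches, on either strand, to GAGGAA, the core that PU.1 binds, or CAGAC, the SMAD core (GTCTG on the other strand), and no matches overlap. Fcrls and Siglech were chosen because they are the 2 with GAGGAA, Crybb1 and Slc2a5 because they fell the most.
Fcrls promoter, chr3:87263475-87263774, - strand: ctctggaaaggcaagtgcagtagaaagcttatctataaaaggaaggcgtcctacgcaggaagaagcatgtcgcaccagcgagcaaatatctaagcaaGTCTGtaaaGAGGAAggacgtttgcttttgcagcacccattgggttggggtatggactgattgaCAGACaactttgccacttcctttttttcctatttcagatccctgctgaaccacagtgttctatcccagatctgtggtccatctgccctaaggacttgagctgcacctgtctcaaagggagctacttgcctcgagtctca
Siglech promoter, chr7:55767934-55768233, + strand: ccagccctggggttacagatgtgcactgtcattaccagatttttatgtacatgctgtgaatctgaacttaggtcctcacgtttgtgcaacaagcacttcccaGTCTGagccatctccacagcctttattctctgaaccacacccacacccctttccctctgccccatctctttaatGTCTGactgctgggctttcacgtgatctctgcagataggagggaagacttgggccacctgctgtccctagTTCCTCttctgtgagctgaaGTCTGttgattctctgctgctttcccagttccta
Crybb1 promoter, chr5:112255570-112255869, + strand: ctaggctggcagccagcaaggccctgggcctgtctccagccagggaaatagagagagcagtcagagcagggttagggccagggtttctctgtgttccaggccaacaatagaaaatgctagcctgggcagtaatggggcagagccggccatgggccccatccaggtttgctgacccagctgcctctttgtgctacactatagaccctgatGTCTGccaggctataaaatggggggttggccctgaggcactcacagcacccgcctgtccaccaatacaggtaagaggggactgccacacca
Slc2a5 promoter, chr4:150119094-150119393, + strand: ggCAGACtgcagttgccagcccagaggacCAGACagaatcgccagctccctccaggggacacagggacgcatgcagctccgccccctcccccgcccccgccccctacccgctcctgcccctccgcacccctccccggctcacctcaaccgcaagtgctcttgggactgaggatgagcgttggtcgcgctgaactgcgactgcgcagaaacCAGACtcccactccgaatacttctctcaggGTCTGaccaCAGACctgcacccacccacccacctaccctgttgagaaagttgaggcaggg
Over all 7 promoters, GAGGAA matched in 2, CAGAC in 5 and the core of the interferon-stimulated response element in 0. Among 32851 promoters of the same length, the shares were 28.3%, 49.6% and 3.44%. A match is a description of letters in this window, not of binding.

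Crybb1 lies at chr5:112255815-112269585 on the + strand of GRCm38. It read 318, 206, 287, 392 and 466 CPM in Cre- libraries, 430.0, 457, 586 and 644 CPM in Cre+ oil and 77.8, 85.5, 129.6 and 82.7 CPM in Cre+ tamoxifen libraries. All 4 Cre+ tamoxifen libraries lay below the lowest of both control groups. The log2 fold change was -1.99 ± 0.40 (SE; edgeR adjusted p = 0.000347) against Cre- and -2.60 ± 0.41 (SE; edgeR adjusted p = 1.24e-05) against oil. The counts behind the low group were 12 to 36 per library. For Slc2a5, at chr4:150119283-150144169 on the + strand, the values were 198, 122, 108, 104 and 159 CPM (Cre-), 162, 232, 168 and 256 CPM (Cre+ oil) and 55.5, 36.0, 32.4 and 55.2 CPM (Cre+ tamoxifen). The groups with tamoxifen and Cre again did not overlap either control. Its log2 fold change was -1.82 ± 0.41 (SE; edgeR adjusted p = 0.00106) and -2.31 ± 0.41 (SE; edgeR adjusted p = 6.79e-05). Only 8 to 15 counts per library stood behind the low values.

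Among the surface proteins, Fcrls, at chr3:87250758-87263738 on the - strand, read 2246, 2228, 1939.8, 2325 and 1925 CPM in Cre-, 2747, 2711, 2417 and 2432 CPM in Cre+ oil and 1026, 666, 835 and 786 CPM in Cre+ tamoxifen libraries, with log2 fold changes of -1.54 ± 0.28 (SE; edgeR adjusted p = 8.45e-05) and -1.76 ± 0.29 (SE; edgeR adjusted p = 2.4e-05). Siglech, at chr7:55768178-55778925 on the + strand, read 1333, 1118, 1245, 1315 and 1077, then 1452, 1283, 1545 and 1615, then 596, 653, 623 and 421 CPM in the same order. Both genes were lower in each Cre+ tamoxifen library than in any control library. Siglech changed by -1.26 ± 0.24 (SE; edgeR adjusted p = 0.000199) against Cre- and -1.49 ± 0.25 (SE; edgeR adjusted p = 3.72e-05) against oil. The 2 secreted proteins moved the same way. Olfml3, at chr3:103722222-103738001 on the - strand, read 1423, 1483, 1219, 1292 and 1361 CPM (Cre-), 1639, 1921, 1688 and 1906 CPM (oil) and 674, 801, 717 and 483 CPM (tamoxifen). Its change was -1.20 ± 0.25 (SE; edgeR adjusted p = 0.000398) against Cre- and -1.54 ± 0.26 (SE; edgeR adjusted p = 2.58e-05) against oil. Sparc, at chr11:55394500-55423183 on the - strand, read 3675, 4090.1, 3015, 3582 and 4023 CPM (Cre-), 4365, 4284, 4202 and 4747 CPM (oil) and 2363, 1625, 1966 and 1848 CPM (tamoxifen), and it changed by -1.10 ± 0.27 (SE; edgeR adjusted p = 0.00217) and -1.30 ± 0.28 (SE; edgeR adjusted p = 0.00056). For Olfml3 and Sparc, too, every Cre+ tamoxifen library lay below every control library.

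The neighbours Tmem119, at chr5:113793729-113800516 on the - strand, and Selplg, at chr5:113818536-113832644 on the - strand, lie 18019 bases apart on the same strand and were not called with the 6 against Cre-. Selplg read 692, 792, 699 and 565 CPM in Cre+ tamoxifen libraries, 3 of the 4 within the Cre- range of 582 to 844 CPM, and below the oil libraries at 1194, 1457, 1137 and 1552 CPM. It changed by -0.28 ± 0.23 (SE; edgeR adjusted p = 0.383) against Cre-, which is not a call, and by -1.08 ± 0.24 (SE; edgeR adjusted p = 0.000963) against oil. Tmem119 read 558, 435, 587, 531 and 615 CPM (Cre-), 587, 819, 694 and 603 CPM (oil) and 615, 657, 429 and 358 CPM (tamoxifen). The ranges overlapped in both comparisons, with log2 fold changes of -0.27 ± 0.21 (SE; edgeR adjusted p = 0.35) and -0.51 ± 0.22 (SE; edgeR adjusted p = 0.0674). Against oil, its adjusted p passed under a fit of the compared groups alone and under a sex term (edgeR adjusted p = 0.0444 and 0.0426), and without Cre+ tamoxifen replicate 2. Gpr84, at chr15:103308235-103310612 on the - strand, read 51.8 to 93.6 CPM in Cre+ tamoxifen libraries, 46.1 to 72.1 CPM in Cre- and 27.7 to 87.0 CPM in oil, and its change was 0.24 ± 0.42 (SE; edgeR adjusted p = 0.711) and 0.41 ± 0.46 (SE; edgeR adjusted p = 0.53).

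**Figure D1:**
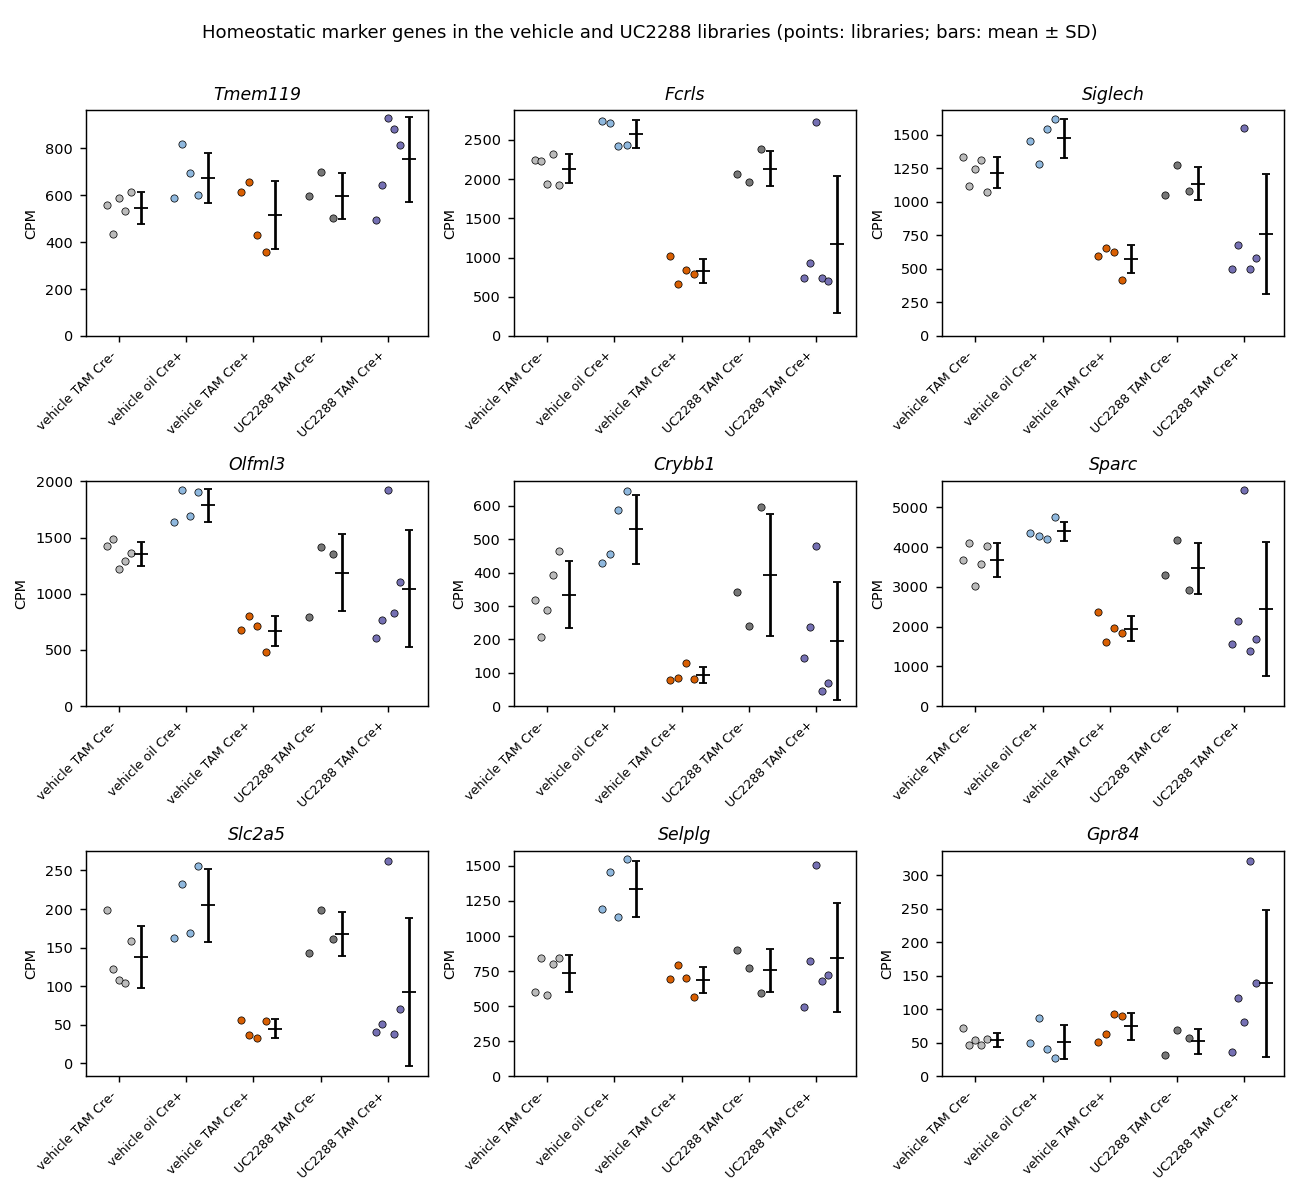
CPM of the 9 genes (y axis, from 0 or below where an error bar ends below it) in the 5 groups of the vehicle and UC2288 table (x axis); points are libraries and bars the mean ± SD. Crybb1 in vehicle Cre+ tamoxifen libraries lies at 77.8 to 129.6 CPM, under both controls, and UC2288 Cre+ replicate 3 stands high for most genes.

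The median log2 fold change of the 9 was -1.20 and -1.49. The 6 and 7 called genes had no overlap with the control libraries, as did 7.29% and 12.1% of all genes in that direction. Every one of the 6 and 7 calls remained in all fits that left out 1 library. Of a fixed list of 25 other homeostatic genes, 3 rose and 13 fell against Cre- (median -0.59), and 3 rose and 14 fell against oil (median -0.63). The 4 with the smallest adjusted p against Cre- were Cx3cr1 (-1.53 ± 0.21, edgeR adjusted p = 1.48e-06), which the knock-in lowers, Cst3, the protease inhibitor cystatin C (-1.88 ± 0.28, edgeR adjusted p = 5.9e-06), P2ry12, the purine receptor of microglial processes (-2.09 ± 0.34, edgeR adjusted p = 1.72e-05), and Gpr34 (-1.55 ± 0.27, edgeR adjusted p = 4.27e-05). Mef2a, Mef2c and Tgfbr1 were the 3 that rose. Of 12 disease-associated genes tested, 2 rose and 6 fell against Cre-. Of 8 inflammatory genes, 5 rose and 0 fell. Among all 4953 genes tested, 710 rose and 637 fell against Cre-, and 799 rose and 757 fell against oil.

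Other markers moved with these groups. Monocyte markers summed to 96.5 to 281 CPM in vehicle Cre+ tamoxifen libraries, 0 to 23.4 CPM in Cre- and 0 to 21.7 CPM in oil, with Ly6c2 and Chil3 at 0 in the Cre+ tamoxifen group. The monocyte gene Plac8 alone averaged 187 CPM in that group, against 7.97 CPM in Cre- and 4.89 CPM in oil. No other gene of that list passed the filter on low counts. Border macrophage markers, with Lyve1, Cd163 and Cbr2 at 0 in the Cre+ tamoxifen group, summed to 82.7 to 187 CPM against 271 to 474 CPM and 291 to 362 CPM. Of these, Mrc1 averaged 111 CPM against 320 CPM and 296 CPM. Astrocyte markers summed to 63.0 to 104 CPM against 18.7 to 57.7 CPM and 30.4 to 45.9 CPM, with Gfap and Aldoc at 0 in the Cre+ tamoxifen group. Slc1a3 alone averaged 81.0 CPM in that group, against 29.9 CPM in Cre- and 23.7 CPM in oil, and was the only astrocyte gene tested. Immediate-early genes summed to 387 to 569 CPM against 299.5 to 386 CPM (Cre-) and 298 to 316 CPM (oil). Of these, Junb and Klf6 were called higher against both controls. Jun was called lower against Cre- and was not called against oil. Mitochondrial counts were 7.76 to 9.59% of the library against 11.1 to 15.9% (Cre-) and 8.93 to 12.3% (oil). The part of these differences in the result was not tested.

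Between the 2 vehicle controls, Cre+ oil and Cre- tamoxifen, 0 of the 9 were called, in a comparison that called 0% of genes (edgeR; 1 member and 290 genes at unadjusted p under 0.05). Of the 8 points above 0 the highest was Selplg, at 0.80 ± 0.23 (SE; edgeR adjusted p = 0.588), and 4 genes had all oil libraries above all Cre- ones, as had 2.18% of all genes. Genotype, tamoxifen and Cre differ together in that comparison and cannot be told apart.

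UC2288 was given to ask what inhibition of CDKN1A does to the effect of Cre with tamoxifen. Against vehicle in Cre+ tamoxifen pups, 0 of the 9 were called (0.727% of all genes tested were; 7 members and 831 genes were at unadjusted p under 0.05). All 9 points lay above 0, with a median log2 fold change of 0.62. The highest was Crybb1 at 1.14 ± 0.41 (SE; edgeR adjusted p = 0.149), then Slc2a5 at 1.10 ± 0.43 (SE; edgeR adjusted p = 0.192). Values across the 5 libraries showed that 1 stood apart. In Fcrls they were 732, 926, 2727, 741 and 705 CPM, in Siglech 496, 679, 1554, 502 and 584 CPM and in Sparc 1573, 2149.7, 5434, 1385 and 1676 CPM. Replicate 3 lay in or above the range of the vehicle oil group for these 3 genes, and the other 4 near the vehicle Cre+ tamoxifen group. In Crybb1 they were 144, 237, 480.4, 44.9 and 69.8 CPM, in Slc2a5 40.0, 51.2, 262, 37.4 and 69.8 CPM, and in Olfml3 604, 768, 1922, 831 and 1105 CPM. The same library read highest for each. Its Cdkn1a, at 499 CPM, was the lowest of the 5, close to 502 CPM in replicate 4 and above the 37.9 to 148 CPM of UC2288 Cre- libraries, and its Cx3cr1, at 1803 CPM, lay above the others. Its P2ry12 read 4479.7 CPM. The 9 members took 1.49% of its counts, against 0.461 to 0.639% in the other 4. This spread was counted as part of the group.

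Without replicate 3 the comparison with vehicle again called 0, and Crybb1 and Olfml3 moved to 0.53 and 0.36 (edgeR adjusted p = 0.538 and 0.409). Without replicate 1 it called 3 members, beside 3.76% of genes called higher in that fit: Tmem119, Olfml3 and Gpr84 (edgeR adjusted p = 0.0251, 0.0251 and 0.0314), all higher with UC2288. Cre+ against Cre- under UC2288 called 0 members with all libraries, when 4% of genes were called (5 members and 668 genes at unadjusted p under 0.05). Without replicate 3 it called 5 lower, in a fit that called 1.15% of genes lower and 5.52% in all. They were Fcrls at -1.48, Slc2a5 at -1.75, Crybb1 at -1.66, Sparc at -1.02 and Siglech at -1.01 (edgeR adjusted p = 2.58e-07, 0.000145, 0.00148, 0.000191 and 0.000231). Without replicate 1 it called Gpr84 higher, as 3.35% of genes (edgeR adjusted p = 0.00836). Whether Slc2a5, Sparc and Siglech were called between genotypes under UC2288 rests on replicate 3. With all libraries and no filter on low counts, Fcrls and Crybb1 were called lower and Gpr84 higher (edgeR adjusted p = 0.0115, 0.00556 and 0.0178), beside 0.204% and 0.993% of genes in those directions. The monocyte marker Plac8 was higher and the border macrophage marker Mrc1 lower in Cre+ with all libraries, at 5.33 and -1.80 (log2; edgeR adjusted p = 1.12e-06 and 8.24e-05), and their part in the result was not tested.

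In Cre- mice UC2288 called 0 of the 9 (0.0202% of genes; 0 members and 470 genes at unadjusted p under 0.05). The test of whether the UC2288 effect differed between Cre+ and Cre- called 0 members too, beside 1.94% of genes (3 members and 1067 genes at unadjusted p under 0.05), with all 9 points above 0 and Olfml3 at 1.04 ± 0.36 (SE; edgeR adjusted p = 0.099). Olfml3 passed without UC2288 Cre- replicate 3 or Cre+ replicate 1. Gpr84 stood out in another library. It read 36.0, 116, 81.1, 322 and 139.7 CPM in the 5 UC2288 Cre+ libraries, 32.3, 68.9 and 56.9 CPM in the 3 Cre- ones, and the highest value, in replicate 4, was its maximum in the series.

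**Figure D2:**
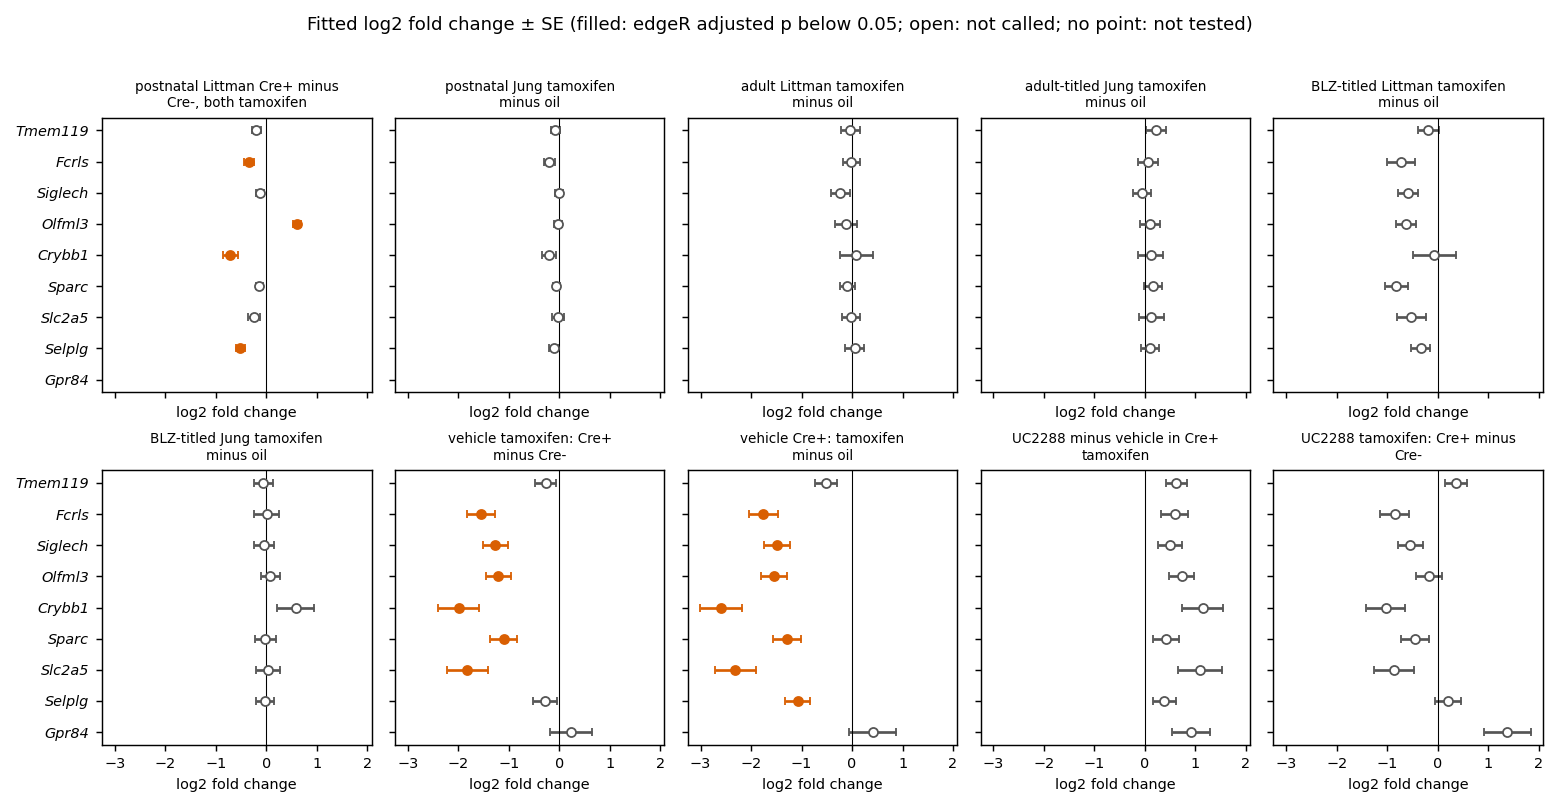
Fitted log2 fold change (x axis) ± SE of each gene (y axis) in 10 comparisons; filled points passed the edgeR adjusted p of 0.05. In vehicle libraries 6 and 7 genes are filled, all below 0; in the postnatal Littman comparison Olfml3 is filled above 0 and 3 genes below.

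In the postnatal table the pattern was mixed. Against Cre-, postnatal Cre+ libraries had 1 member higher, Olfml3, and 3 lower, Crybb1, Selplg and Fcrls, of the 8 tested. Of all genes, 7.8% were called (4.56% higher and 3.24% lower). Olfml3 read 1984, 2065, 2219, 2249 and 1730.1 CPM in Cre- and 2542, 2939.7, 3279.8, 3292 and 3165 CPM in Cre+ libraries. Each Cre+ library was above each Cre- library, and the change was 0.61 ± 0.08 (SE; edgeR adjusted p = 1.04e-07). Selplg read 3397, 3448, 3407, 3905 and 3047 CPM against 1737, 2754, 2491, 2659.5 and 2053 CPM, with all Cre+ libraries lower, at -0.52 ± 0.09 (SE; edgeR adjusted p = 2.67e-05). Crybb1 read 306, 265, 266, 362 and 289.8 CPM against 104, 159.6, 254, 206 and 158 CPM, again without overlap, at -0.71 ± 0.14 (SE; edgeR adjusted p = 0.000539). Fcrls read 2588, 2592, 3118, 2939 and 2026 CPM against 1318, 2312, 2486, 2087 and 1936 CPM. Its ranges overlapped, its change was -0.35 ± 0.10 (SE; edgeR adjusted p = 0.0177), and it lost the call without Cre- replicate 3 or Cre+ replicate 1 and with the 2 groups fitted alone. Tmem119 (-0.20 ± 0.08), Slc2a5 (-0.24 ± 0.12), Sparc (-0.14 ± 0.07) and Siglech (-0.13 ± 0.08) were not called. Across all genes, 2.49% had every Cre+ library above and 3.38% below every Cre- library.

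Of the 25 other homeostatic genes, 1 rose (C1qb) and 13 fell in Cre+ (median -0.31), led by Cx3cr1 (-1.43 ± 0.07, edgeR adjusted p = 4.2e-21), Adgrg1 (-0.80 ± 0.11, edgeR adjusted p = 7.42e-07), Vsir (-0.56 ± 0.08, edgeR adjusted p = 1.38e-06) and P2ry12 (-0.57 ± 0.10, edgeR adjusted p = 3.67e-05). Of 12 disease-associated genes tested 8 rose and 1 fell, and of 8 inflammatory genes 2 rose and 0 fell. Cdkn1a read 164 to 399 CPM in Cre+ and 40.7 to 63.9 CPM in Cre- libraries. Border macrophage markers summed to 106 to 289 CPM in Cre+ and 87.8 to 128 CPM in Cre- libraries, with Lyve1, Cd163 and F13a1 at 0 in Cre+, and mitochondrial counts were 5.12 to 6.69% against 3.76 to 5.02%. Of the markers of other cell types that could be tested, the monocyte gene Plac8 (log2 fold change 2.30, edgeR adjusted p = 0.000207) and the border macrophage gene Mrc1 (0.60, edgeR adjusted p = 0.0297) were higher in Cre+. The endothelial gene Pecam1 (-1.61, edgeR adjusted p = 0.00204) and the astrocyte gene Slc1a3 (-0.48, edgeR adjusted p = 0.043) were lower. Summed, monocyte markers read 21.3 to 66.5 against 2.56 to 53.5 CPM, with Ly6c2, Chil3 and Vcan at 0 in Cre+, endothelial markers 5.32 to 33.3 against 30.6 to 52.7 CPM, with Cldn5 and Ly6c1 at 0 in both groups, and astrocyte markers 86.1 to 171 against 155 to 232 CPM, with Gfap and Gja1 at 0 in Cre+. Cre+ replicate 2 stood apart in immediate-early genes, at 1304 CPM, where the other Cre+ libraries read 437 to 520.0 CPM, and the 4 calls of members remained without it. The part of the other values in the result was not tested. This set has no Littman oil group, so genotype and Cre activity cannot be told apart.

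The Jung line gave another comparison. Tamoxifen against oil called 0 of 8 members (0.0848% of genes; edgeR, 0 members and 392 genes at unadjusted p under 0.05), with all 8 points below 0 and the lowest, Fcrls and Crybb1, at -0.20 ± 0.10 and -0.20 ± 0.14. Olfml3 read 2600.3, 2746, 3082, 2878 and 2753 CPM with oil and 2439, 2876, 2949 and 2771 CPM with tamoxifen. The test of whether the Littman Cre effect differed from the Jung tamoxifen effect called Olfml3 alone (0.353% of genes), at 0.64 ± 0.11 (SE; edgeR adjusted p = 0.00147), and kept it in all 19 fits without 1 library. Selplg reached -0.40 ± 0.12 (SE; edgeR adjusted p = 0.142) and was called without Cre+ replicate 2. Only the Littman contrast changed genotype, and only the Jung contrast changed tamoxifen. Genotype, tamoxifen and line cannot be told apart in the test of the difference.

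Littman Cre+ tamoxifen libraries were also below Jung tamoxifen libraries in 5 members, when 6.74% of genes were called, 2.93% of all genes being lower. Both groups carry 1 Cre allele. Crybb1 read 322, 337, 435 and 308 CPM in Jung and was -0.95 ± 0.15 (SE; edgeR adjusted p = 1.48e-05) in the Littman libraries, and Selplg read 3303, 4120.5, 4365 and 3709 CPM and was -0.69 ± 0.09 (SE; edgeR adjusted p = 4.62e-07). Fcrls (-0.51 ± 0.10 (SE; edgeR adjusted p = 0.00091)), Tmem119 (-0.41 ± 0.09 (SE; edgeR adjusted p = 0.00148)) and Slc2a5 (-0.50 ± 0.12 (SE; edgeR adjusted p = 0.00688)) followed. None of the 5 overlapped between the groups (4.76% of all genes were apart that way), and Slc2a5 lost its call without Jung tamoxifen replicate 3 (edgeR adjusted p = 0.0856). Line, allele and Rosa26YFP differ together here. Plac8 and Mrc1 were called higher and Pecam1 and Slc1a3 lower in this comparison too, and mitochondrial counts in Jung tamoxifen libraries were 3.71 to 4.13%; their part was not tested. Jung oil against Littman Cre- libraries had Olfml3 higher, at 0.45 ± 0.08 (SE; edgeR adjusted p = 0.000622), beside 0.791% of genes (0.254% higher), with all 8 points above 0. With these 2 groups fitted alone, 5 members were called higher, beside 0.867% of genes in that fit. Line, Cx3cr1 allele, Rosa26YFP and tamoxifen differ together between Jung oil and Littman Cre- libraries and cannot be told apart. Olfml3 in Littman Cre+ differed from Jung tamoxifen by 0.19 ± 0.08 (SE; edgeR adjusted p = 0.185), so its levels in the 2 Cre+ tamoxifen groups were not separated by the test.

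**Figure D3:**
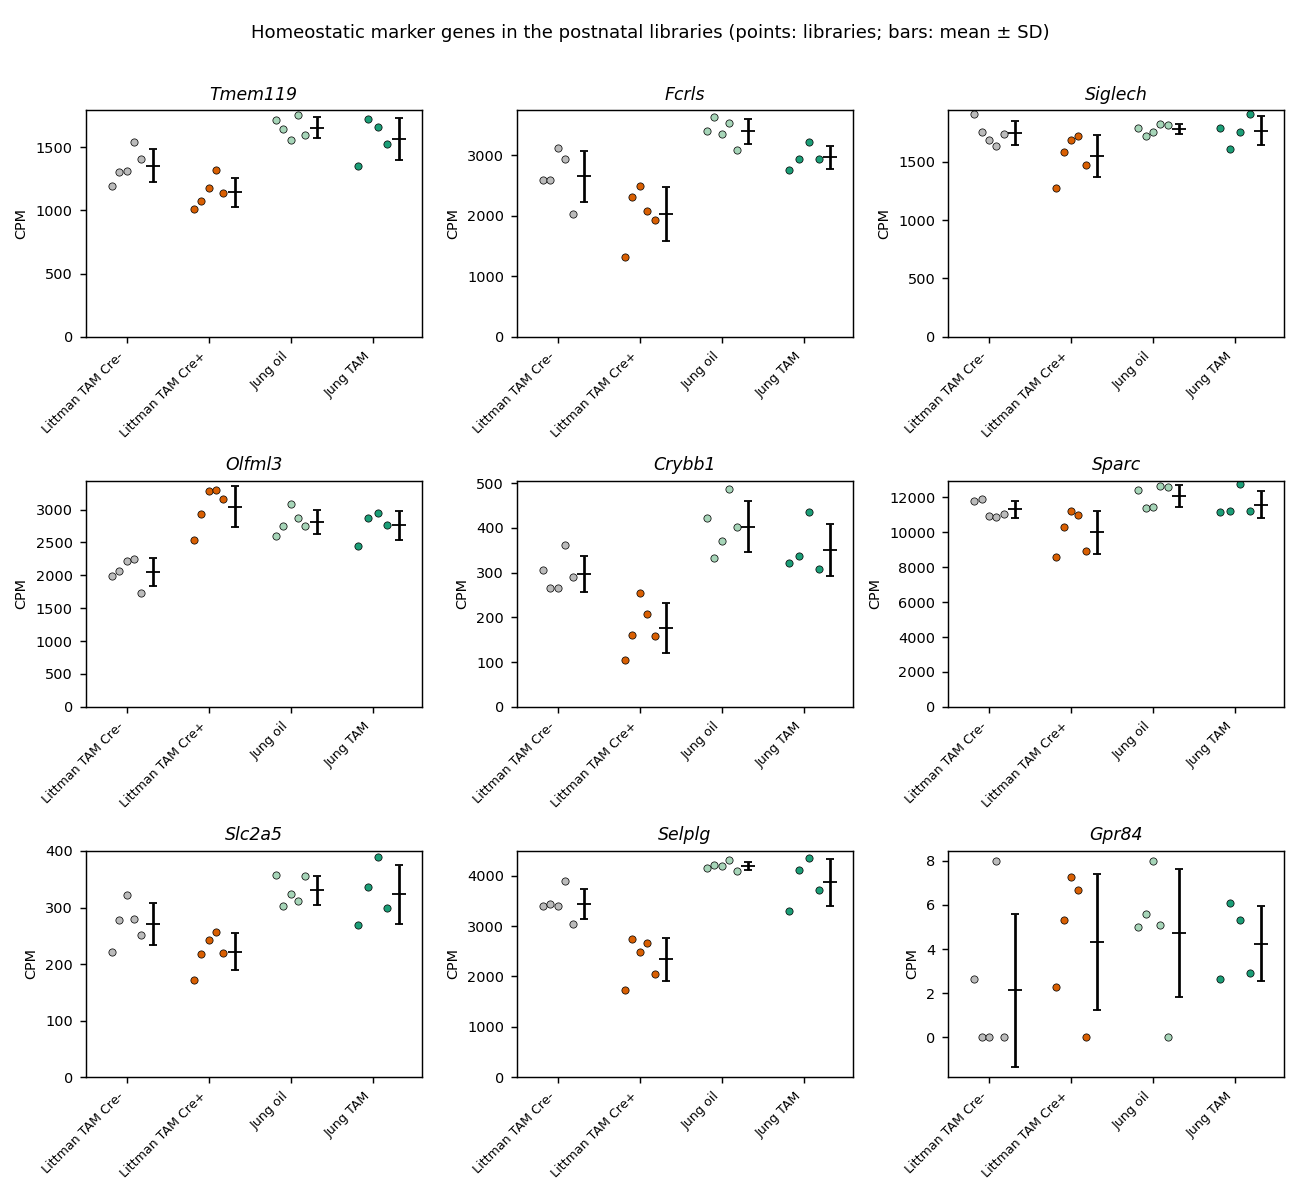
CPM of the 9 genes (y axis) in the 4 groups of the postnatal table (x axis); points are libraries and bars the mean ± SD. Olfml3 in Littman Cre+ libraries lies at 2542 to 3292 CPM, above every Cre- library (1730.1 to 2249 CPM), and Selplg at 1737 to 2754 CPM, below them all (3047 to 3905 CPM).

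In adults, tamoxifen gave no call among the 8 tested members in either line by the edgeR test. Against oil, adult Littman called 0 members, as for 0.0181% of all genes (0 members and 154 genes at unadjusted p under 0.05), with log2 fold changes from -0.23 to 0.08. Adult-titled Jung called 0 too (0%; 0 members and 113 genes at unadjusted p under 0.05), with values from -0.06 to 0.23. In these tables Cdkn1a read 172 to 220.0 CPM with tamoxifen against 41.7 to 86.7 CPM with oil in Littman libraries. Tmem119 read 2069.7, 1997, 1307 and 1776 CPM with oil and 1793, 1849 and 1489 CPM with tamoxifen, and its groups overlapped. Gpr84 was not tested, at 13.9 to 33.9 CPM with oil and 6.52 to 13.1 CPM with tamoxifen in Littman libraries. These values rest on 4 to 11 and 2 to 4 counts per library, too few to read a difference.

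The BLZ-titled Littman libraries showed lower values after tamoxifen, but no call was made: 0 of 8 members against 0.0581% of genes, with 4 members and 369 genes at unadjusted p under 0.05. All 8 points lay below 0, with a median of -0.56. Sparc read 7078, 7377 and 7725 CPM with oil and 5959, 3825, 5377 and 2137 CPM with tamoxifen, at -0.83 ± 0.22 (SE; edgeR adjusted p = 0.186). Siglech read 1970.0, 1967 and 2057 CPM and 1544, 1334, 1781 and 824 CPM, and Olfml3 4296, 3894 and 4650.3 CPM and 2990.1, 2677, 3481 and 2327 CPM. Those 3 genes had no overlap between groups, at -0.59 ± 0.21 for Siglech and -0.62 ± 0.20 for Olfml3; 3.74% of all genes were apart in that direction. Fcrls was at -0.73 ± 0.27 (SE; edgeR adjusted p = 0.578) with overlap and was called without tamoxifen replicate 3, and Sparc was called with no filter on low counts. The others were Tmem119, Selplg, Crybb1 and Slc2a5 at -0.19 ± 0.21, -0.34 ± 0.19, -0.07 ± 0.43 and -0.52 ± 0.29. Replicate 4 had the lowest value of the tamoxifen group in 7 of the 8 genes. It also had the highest immediate-early sum, 912 CPM, against 622 to 694 CPM in the other tamoxifen libraries and 558 to 603 CPM with oil. Jun, Junb and Klf6 were not called between these groups. P2ry12 in replicate 4, at 956 CPM, was the lowest of the tamoxifen group. The part of these values in the result was not tested. By Xist counts the 3 oil libraries were male, and 3 of the 4 tamoxifen libraries female.

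In BLZ-titled Jung libraries, tamoxifen called 0 of 8 (0% of genes; 0 members and 287 genes at unadjusted p under 0.05), with 4 points on each side of 0. The test of the difference between the lines called 0 as well (0% of genes; 2 members and 417 genes at unadjusted p under 0.05), so the line difference in the tamoxifen response was not shown. With oil, Olfml3 was higher in Littman than in Jung libraries, at 0.65 ± 0.20 (SE; edgeR adjusted p = 0.0349), when 9.12% of genes were called (6.72% higher). It read 4296, 3894 and 4650.3 CPM in Littman and 3393, 3009, 3896 and 2399 CPM in Jung. The call was lost in 5 of 7 fits without 1 library, namely any of the 3 Littman oil libraries and Jung oil replicates 2 and 4. Scaled by column totals alone it was also lost (0.40, edgeR adjusted p = 0.128), and Slc2a5 was called lower (-0.95, edgeR adjusted p = 0.0162). Other values moved with these groups without overlap: mitochondrial counts were 5.13 to 5.41% in Littman and 2.90 to 4.61% in Jung libraries, and monocyte markers summed to 34.3 to 155 and 5.28 to 15.7 CPM, with Ly6c2, Chil3 and Vcan at 0 in Jung. The oligodendrocyte gene Mag was lower in Littman (-2.06, edgeR adjusted p = 0.0291), and 7 of 12 disease-associated genes tested were higher and 0 lower. Cdkn1a was higher in Littman oil libraries (1.79, edgeR adjusted p = 0.00113). Of the inflammatory genes, Ccl2, Ccl3, Ccl4 and Tlr2 were called higher, while Il1a, Nfkbia and Cd14 were not called. Their part in the result was not tested. By their treatment labels, these 2 groups differ in BLZ945 as well as line.

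**Figure D4:**
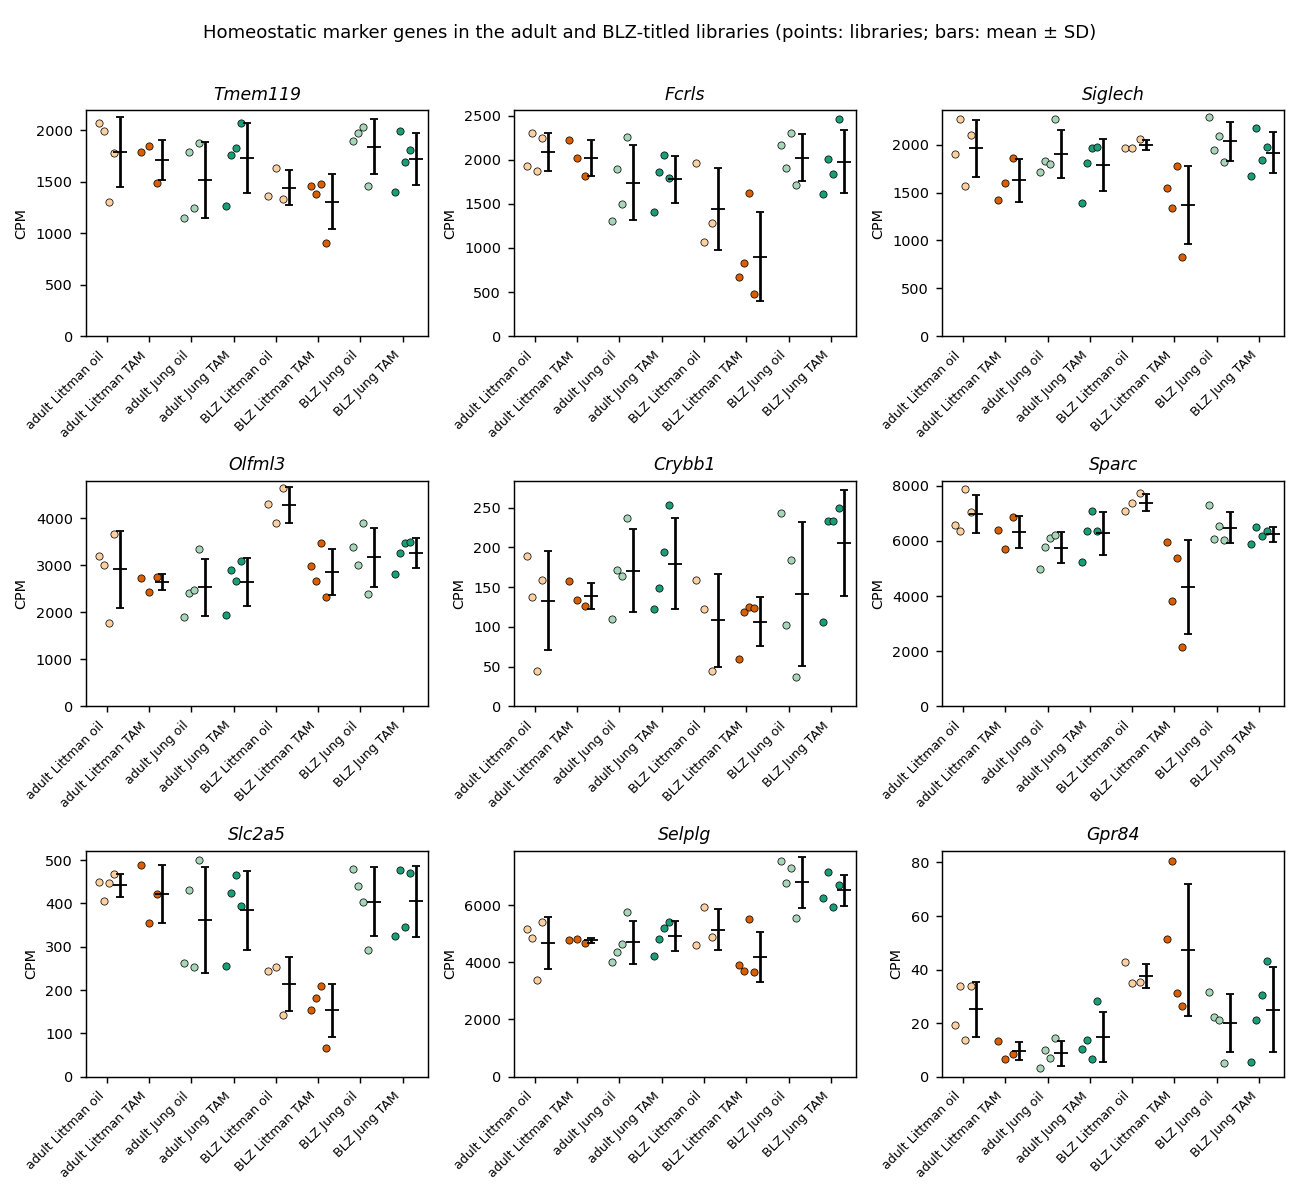
CPM of the 9 genes (y axis) in the 8 adult and BLZ-titled groups (x axis); points are libraries and bars the mean ± SD, and the adult and BLZ-titled groups come from separately scaled tables. Sparc in BLZ-titled Littman tamoxifen libraries spans 2137 to 5959 CPM, below the oil libraries at 7078 to 7725 CPM.

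As a share of all counts, the 9 genes together took 0.469 to 0.615% in vehicle Cre+ tamoxifen libraries, 0.904 to 1.06% in Cre- and 1.25 to 1.38% in Cre+ oil. In the postnatal table the shares were 1.67 to 2.28% in Littman Cre+, 2.15 to 2.38% in Cre-, 2.60 to 2.78% in Jung oil and 2.34 to 2.75% in Jung tamoxifen libraries. Sparc weighed most in these sums. It averaged 3677 CPM in vehicle Cre- and 11308 CPM in postnatal Cre- libraries, against 334 and 298 CPM for Crybb1. The genes whose level followed the mean of the members most closely were Cst3 in both tables, with Pearson r 0.93 over 19 postnatal and 0.95 over 21 vehicle and UC2288 libraries, all sharing depth and sort. Next came Fam110a, Lrba, Ecscr and Numb (postnatal, r 0.91, 0.91, 0.90 and 0.90) and Ltc4s, Serinc3, Cd164 and P2ry12 (vehicle and UC2288, r 0.94, 0.94, 0.94 and 0.93). For Cst3, Spearman's rho was 0.93 and 0.95, r without the 2 libraries farthest from the median 0.87 and 0.95, and r within groups 0.84 and 0.88.

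**Figure D5:**
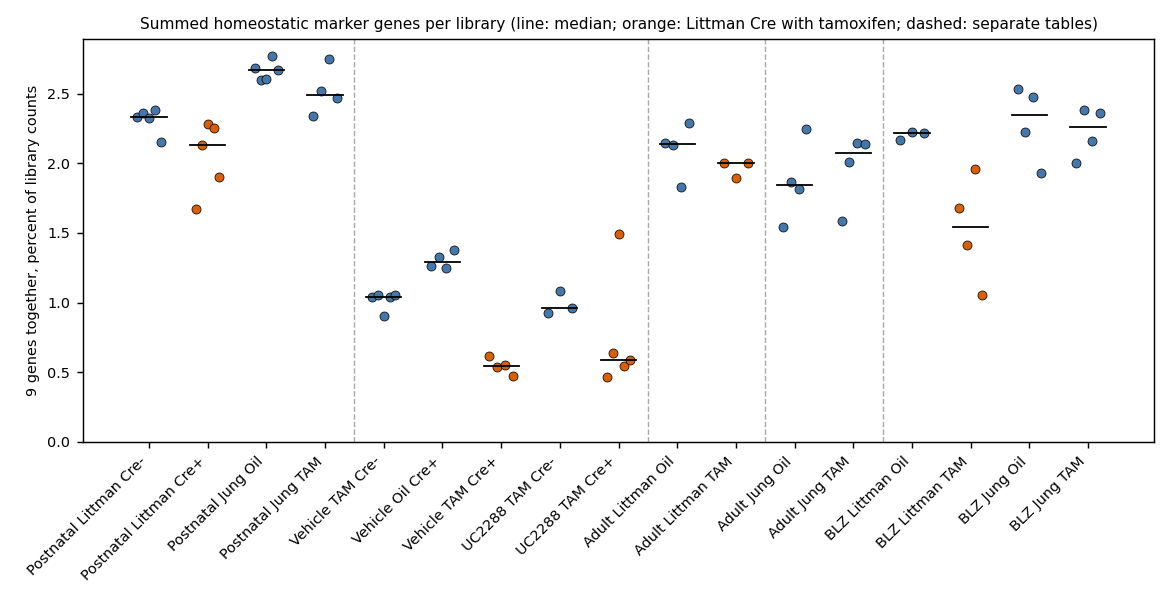
Summed counts of the 9 genes as percent of each library's counts (y axis) in the 17 groups (x axis), each point a library and each line a group median. Vehicle Cre+ tamoxifen libraries lie at 0.469 to 0.615%, under Cre- and oil, and 1 UC2288 Cre+ library lies at 1.49%.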

How the data were processed

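The authors deposited whole-number read counts per gene for each library in 5 tables, with no normalization. Per the labels' protocols, each library used 15 uL of a 30 uL lysate of 500 sorted cells, with a molecular identifier of 10 nt, a barcode of 9 nt and an 81 nt insert. Tools named, without versions, in the submitters' processing notes are HISAT2, featureCounts, Trim Galore and UMI-tools, on GRCm38, and the sources used here do not give annotation or strand handling. CPM was computed from column totals. Tests used the quasi-likelihood fit of edgeR 4.0.16 (R 4.3.3) over all groups of 1 table at a time, after filterByExpr and TMM scaling, with Benjamini-Hochberg adjustment over all tested genes and a call below 0.05. TMM factors enter the fold change, so it can differ from the ratio of CPM. All 9 members are named. Beyond them, up to 4 called genes with the smallest adjusted p were named from a fixed list in a comparison, with the genes that went the other way added after their values were seen, and the 5 genes most like the members by Pearson correlation with the mean of their standardised log2 CPM (prior count 2). The members and lists were chosen with earlier results of these data known. The script was tested on simulated data. Depth limits low genes to a few counts per library. Alternatives were another scaling, no filter, DESeq2 1.42.0, the compared groups alone, a sex term, a replicate block, leaving out each library, and (added after seeing the data) leaving out libraries with neutrophil markers above 100 CPM.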

Additional observations from a re-analysis of the deposited data

Results flagged for a closer look

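Over 126 groups of 4 to 10 libraries and members, 10 held a library far from the rest, where chance alone gives about 6.3 (1 in 20). UC2288 Cre+ replicate 3 was high in 4 of them: Fcrls at 2727 CPM, Siglech at 1554 CPM, Slc2a5 at 262 CPM and Sparc at 5434 CPM, beside 926, 679, 69.8 and 2149.7 CPM in the next library. The BLZ-titled libraries held 4. Crybb1 was low in Jung tamoxifen replicate 1 (107 CPM) and in Littman tamoxifen replicate 1 (60.1 CPM), Selplg was high in Littman tamoxifen replicate 3 (5507 CPM), and Tmem119 was low in Littman tamoxifen replicate 4 (908 CPM). Crybb1 was high in vehicle Cre+ tamoxifen replicate 3 (129.6 CPM), and Sparc was high in postnatal Jung tamoxifen replicate 3 (12751 CPM).

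Olfml3 effects differed between contrasts. In the postnatal table the Littman Cre effect exceeded the Jung tamoxifen effect by 0.64 on the log2 scale, by the test of the difference. The Littman effect compares genotypes after tamoxifen, and the Jung effect compares tamoxifen with oil in Cre carriers. These contrasts are not alike, so genotype, tamoxifen and line cannot be told apart. Between tables, the log2 ratio of mean CPM of Cre+ to Cre- libraries, both after tamoxifen, was 0.57 in the postnatal set and -1.02 in the vehicle set, with no overlap of the groups in either set. That second difference was not tested.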

How the results depend on the processing

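No called member value reversed. Of 25 member values called, all kept the call under every alternative but Fcrls (postnatal Cre+ against Cre-), Slc2a5 (postnatal Littman against Jung tamoxifen) and Olfml3 (BLZ-titled oil). Another 21 passed under some alternative only, and 35 of 105 never called changed sign. The largest main value that changed sign without a call, in these or in the 21, was 0.59 (log2). The members called in Jung oil against Littman Cre- numbered 1, but 3 with no filter, 5 with the groups alone, 4 with a sex term and 4 with the replicate block, and 1 to 5 without 1 library. In the BLZ-titled oil comparison the 1 call became 0 with the groups alone, with a sex term, with the replicate block and without neutrophil-marker libraries, and 0 to 1 without 1 library. BLZ-titled Littman tamoxifen went from 0 to 1 with no filter and 0 to 1 without 1 library. UC2288 against vehicle in Cre+ went from 0 to 1 with no filter and 0 to 3 without 1 library; UC2288 Cre+ against Cre- from 0 to 3 and 0 to 5; the UC2288 difference from 0 to 1 and 0 to 1. Vehicle Cre+ oil against Cre- went from 0 to 1 with the groups alone, and the postnatal difference ranged from 1 to 2 without 1 library. The cause was not tested. The replicate block changed no other call count. Same-numbered libraries correlated between -0.359 and 0.344, never over 0.1 in every pair of a comparison, so the numbers were not taken to pair samples.

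Scaling by column totals alone put the median log2 fold change of all genes over 0.1 from 0 in 6 comparisons, the outermost being -0.30 (BLZ-titled oil) and 0.21 (vehicle Cre+ against Cre-). It turned calls higher and lower from 710 and 637 into 1027 and 393 (vehicle against Cre-), 799 and 757 into 992 and 565 (against oil), 347 and 124 into 245 and 417 (BLZ-titled oil), 47 and 49 into 21 and 96 (UC2288 difference), 323 and 229 into 261 and 297 (postnatal against Cre-), 270 and 207 into 219 and 269 (against Jung tamoxifen) and 18 and 7 into 17 and 13 (postnatal difference). Relative to those shifts the vehicle calls of members stood. Counts over all genes moved by over 1.5 times for UC2288 against vehicle in Cre+ (36, against 2 to 132), UC2288 Cre+ against Cre- (198, against 111 to 246), the UC2288 difference (96, against 1 to 179), Jung oil against Littman Cre- (56, against 36 to 145), the postnatal difference (25, against 26 to 55) and BLZ-titled oil (471, against 271 to 662). The libraries hold few counts of Gpr84, Slc2a5 and Crybb1, which limits small differences.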
